A study of Mus musculus with 10 samples.

Results

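Myelin is the lipid-rich membrane that oligodendrocytes wrap around axons of the central nervous system. Its compact layers are held by small basic proteins and proteolipids, its inner and outer surfaces carry adhesion molecules, and its lipids need dedicated enzymes. The transcription factors SOX10 and OLIG2 set the lineage, and its precursor cells are known by the receptor PDGFRA and the proteoglycan NG2. The 31 genes described here are those of a list of oligodendrocyte lineage and myelin genes, out of 32531 genes counted. They were taken by symbol, and all 31 had a row in every library and passed the filter on low counts that left 16250 genes for testing. For description they were split by role into 14 genes of the myelin sheath, 6 enzymes, 4 genes of receptors, junctions and secretion, 4 transcription factors and 3 precursor genes.

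All libraries came from adult BAC transgenic mice (Chat-TRAP, line DW167) whose transgene puts EGFP on Rpl10a, a protein of the ribosome. Expression of the tag follows Chat, the gene of the enzyme that makes acetylcholine in neurons. All 10 libraries are RNA from pull-downs of tagged polysomes, 5 from the left and 5 from the right medial habenula, and every animal carried the tag. No library of unpurified tissue was analysed here, so depletion or enrichment of these genes by the pull-down was not measured. Whether each library is a separate animal is not stated in the labels, so p-values measure only the spread between these libraries. Gene reads summed to between 42488448 and 67942836 per library, and levels are CPM, that is reads scaled to the same total of gene reads. Errors are SD over 5 libraries of a side. A log2 fold change above 0 means a higher level on the left. In RNA of such pull-downs, fewer cells of a type, less RNA per cell and less untagged RNA carried through the pull-down cannot be told apart.

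Earlier looks at these libraries, which used glial genes, set replicates 1 and 5 of both sides apart from replicates 2 to 4. The labels give no such grouping, so it is described here with ranges and not tested. Within a side replicates 1 and 5 were also close to each other. For genes with 20 to 100 reads, chi-square per gene between them was 1.63 (left) and 1.19 (right), against 4.89 to 31.5 for the other pairs of a side. For genes with 100 to 500 reads it was 2.65 (left) and 1.38 (right), against 9.15 to 86.8. Sampling noise alone would give about 1, and both pairs lay above it. Values above 1 do not show that the libraries of a pair come from separate animals. All were kept as separate libraries, and the tests below rest on that choice.

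Of the genes that define the list, Mbp, Mog, Mag, Sox10, Olig1 and Olig2 had reads in all 10 libraries. So did 15745 of the 16250 genes tested, so the presence of reads does not by itself bear out the label. Markers of Schwann cells, which make peripheral myelin, summed to between 0.177 and 0.541 CPM over 4 genes. Among these, Prx, a protein of peripheral myelin sheaths, stood at 0.0303 to 0.400 CPM and Egr2, their transcription factor, at 0.0307 to 0.485 CPM. Pmp2 had 0 reads in every library. In GENCODE M21 it shares 86.9% of its exonic bases with Gm37389, a same-strand gene without a row in the counts. The part of this overlap in the 0 reads was not tested.

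Because members of the list moved together over the libraries, as described next, the windows around their transcription starts were read from RefSeq (GRCm38.p6). A window runs from 250 bases before to 50 after a start, and 23 of 31 members had at least 1. SOX-family proteins bind the words ACAAAG and ACAATG, and both were searched on both strands. Of the 23 members 9 had at least 1 match in a window, 39.1%, against 31.7% of all 27025 genes with a window. The E-box words CAGCTG and CATATG, bound by factors of the OLIG type, were in windows of 4 members, 17.4%, against 22.1% of all genes. These palindromic words do not overlap the SOX words. The Mobp window was the only one of 32851 windows with 6 or more matches to ACAAAG. That cut is the count of Mobp itself, so this describes 1 window and not the members. ACAAAG alone was in windows of 6 members, 26.1%, against 21.0% of all genes. The 4 windows shown are those of Mobp, of Opalin with 2 matches, and of Cnp and Ermn with 1 each, with matches on either strand in capitals. A match is a description of the letters and not a binding site. The window of Mobp is chr9:120149492-120149791 on the plus strand, that of Opalin chr19:41077064-41077363 on the minus strand, that of Cnp chr11:100574689-100574988 on the plus strand and that of Ermn chr2:58052815-58053114 on the minus strand.
Mobp: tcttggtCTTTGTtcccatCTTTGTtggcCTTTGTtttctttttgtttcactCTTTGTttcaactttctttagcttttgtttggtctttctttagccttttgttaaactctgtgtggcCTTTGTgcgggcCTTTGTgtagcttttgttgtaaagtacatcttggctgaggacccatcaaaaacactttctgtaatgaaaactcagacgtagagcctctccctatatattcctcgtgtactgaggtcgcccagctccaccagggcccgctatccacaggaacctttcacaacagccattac
Opalin: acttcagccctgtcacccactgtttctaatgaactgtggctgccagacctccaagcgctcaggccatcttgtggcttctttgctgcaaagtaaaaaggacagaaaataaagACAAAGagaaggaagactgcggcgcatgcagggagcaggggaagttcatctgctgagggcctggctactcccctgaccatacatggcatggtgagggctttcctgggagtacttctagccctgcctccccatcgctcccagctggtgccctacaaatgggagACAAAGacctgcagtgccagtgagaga
Cnp: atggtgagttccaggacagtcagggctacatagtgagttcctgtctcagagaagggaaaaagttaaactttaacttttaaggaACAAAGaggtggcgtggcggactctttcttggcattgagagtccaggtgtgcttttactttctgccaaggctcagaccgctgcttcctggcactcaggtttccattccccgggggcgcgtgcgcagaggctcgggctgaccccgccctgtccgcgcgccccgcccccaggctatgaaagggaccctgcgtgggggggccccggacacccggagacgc
Ermn: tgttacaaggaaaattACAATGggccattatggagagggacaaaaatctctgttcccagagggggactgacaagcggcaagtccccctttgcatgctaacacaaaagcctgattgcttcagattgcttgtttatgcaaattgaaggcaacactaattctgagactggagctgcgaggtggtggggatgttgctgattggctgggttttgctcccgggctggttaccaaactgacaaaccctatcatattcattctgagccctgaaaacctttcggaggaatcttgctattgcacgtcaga
In Mobp all 6 matches read CTTTGT, the other strand's form, and lie between bases 8 and 136 of the window. In Opalin both read ACAAAG and lie between bases 112 and 279.

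The list was carried at very unequal levels by the libraries. Of the 31 members 29 were lower in all 4 libraries of replicates 1 and 5 than in all 6 of replicates 2 to 4. Of all genes tested, 24.3% showed that order and 22.9% the opposite one. The split rests in part on genes of this kind, so the count is a description. Qdpr ran the opposite way and Ppp1r14a overlapped. The median ratio of the highest to the lowest library was 16.2 over the members and 2.03 over all genes tested with reads in every library. It was higher over astrocyte (25.1), microglia (27.2) and endothelial markers (22.6), so a wide range is not particular to this list. Over choroid plexus (9.26) and habenular neuron markers (2.40) it was lower. For 22 members the ratio was at least 10, which 9.78% of all genes tested with reads in every library reached. For 5 it lay between 3 and 10, and for 4 it was under 3.

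**Figure D1:**
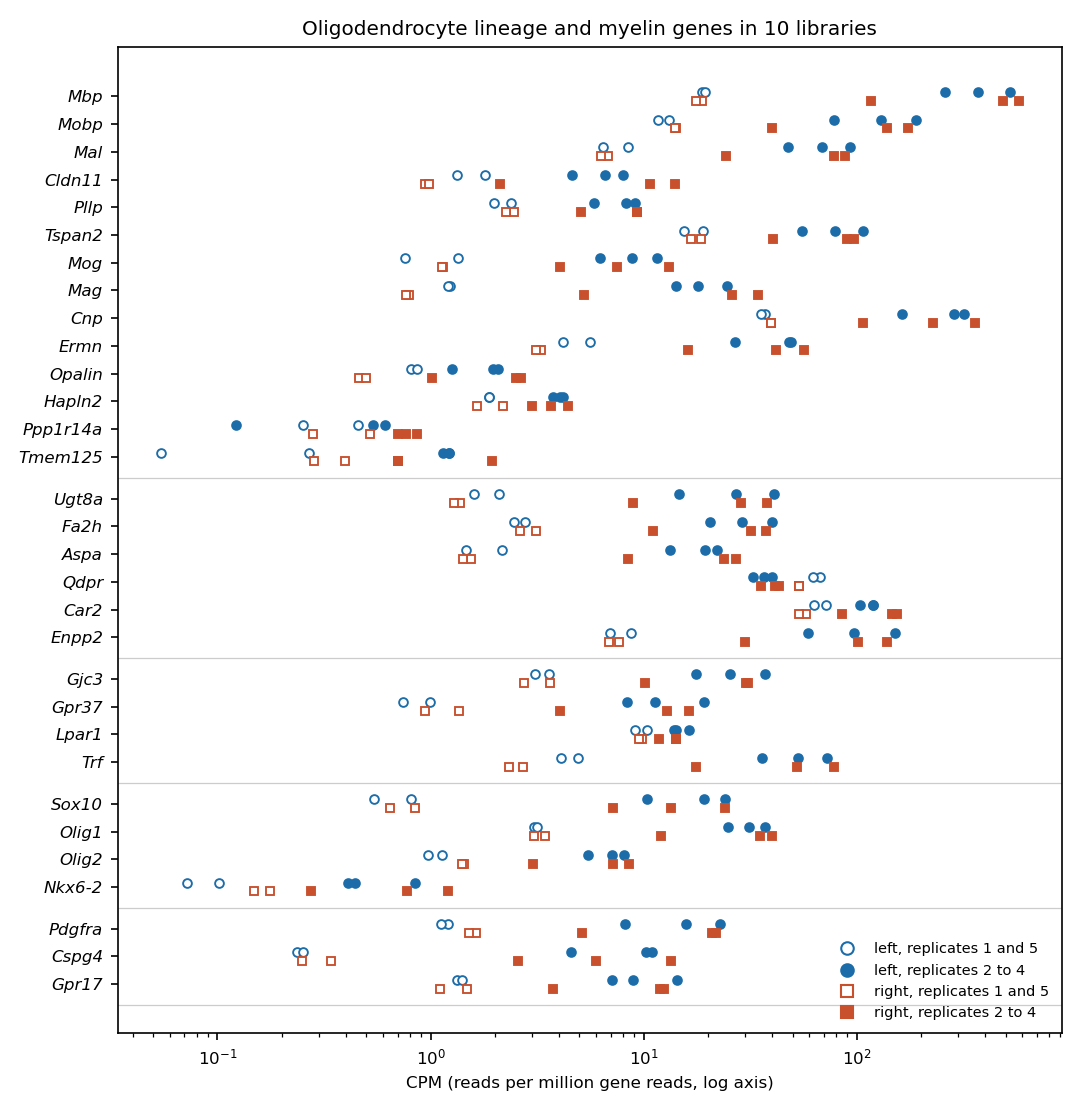
CPM of each of the 31 members in 10 libraries on a log axis, grouped by role and separated by grey lines (sheath, enzymes, receptors and others, transcription factors, precursors). Blue circles are left and red squares right libraries, and open symbols are replicates 1 and 5. Open symbols lie left of all filled ones for 29 members, right of them for Qdpr and among them for Ppp1r14a.

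Among sheath genes, Mbp, the basic protein that holds the cytoplasmic faces of compact myelin together, stood at 18.9, 260.1, 372, 522 and 19.3 CPM in left replicates 1 to 5. In right replicates 1 to 5 it stood at 18.8, 117, 578, 488 and 17.7 CPM. Replicates 1 and 5 were alike on both sides, and right replicate 2 was the lowest of the other 6. The mean was 238 ± 221 CPM (left) and 244 ± 269 CPM (right), and the highest library was 32.8 times the lowest. Mag, the adhesion molecule of the inner, axon-facing membrane, had a wider range, 44.8-fold. It stood at 1.23, 14.2, 17.9, 24.7 and 1.21 CPM in the left libraries, and the right ones had 0.789, 5.26, 34.3, 25.9 and 0.765 CPM. Here the sides differed within replicates 1 and 5, with both left libraries above both right ones.

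Cnp, an enzyme that keeps the cytoplasmic channels of myelin open, varied less. Its values were 37.2, 164, 285, 318 and 35.6 CPM in the left libraries and 39.6, 108, 358, 229 and 39.5 CPM in the right ones, a 10.1-fold range. Per 100 reads of Mbp there were 184 to 224 reads of Cnp in replicates 1 and 5 and 46.9 to 91.9 in the other 6 libraries. The proportions between sheath genes were therefore not fixed. Mag, by contrast, kept close to Mbp, with 4.21 to 6.52 reads per 100 reads of Mbp in replicates 1 and 5 and 4.49 to 5.93 in the others.

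The other sheath genes followed the same order of libraries over smaller or similar ranges. Mobp, a basic protein of compact myelin, ranged between 11.7 (left replicate 5) and 190.1 CPM (left replicate 4). Mal, a proteolipid of membrane trafficking, ranged from 6.33 to 93.1 CPM and Tspan2, a tetraspanin, from 15.5 to 107 CPM. Ermn, a cytoskeletal protein of mature oligodendrocytes, ranged from 3.12 to 56.7 CPM, and Mog, on the outer face of the sheath, from 0.758 to 13.1 CPM. Cldn11, which forms the tight junctions of central myelin, ranged from 0.938 to 14.1 CPM and was the only member with its highest value in right replicate 4. The smallest ranges of the role were those of Pllp (plasmolipin), 4.69-fold, and Hapln2, a link protein at nodes of Ranvier, 2.69-fold. Opalin, a membrane glycoprotein of oligodendrocytes, stayed between 0.462 and 2.65 CPM.

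Ppp1r14a, an inhibitor of myosin phosphatase, did not share the order. It stood at 0.455, 0.539, 0.608, 0.122 and 0.253 CPM in the left libraries, and the right ones had 0.521, 0.767, 0.863, 0.706 and 0.280 CPM. Left replicate 4, among the highest libraries for most members, was the lowest here, with 8 reads (exact Poisson 95% interval 0.0526 to 0.240 CPM, counting error only). Without that library its replicates 1 and 5 also lay below the rest, but by a gap within counting error. The nearest values were 0.521 CPM in right replicate 1 (95% interval 0.363 to 0.725) and 0.539 CPM in left replicate 2 (0.373 to 0.753). Tmem125 was as thin, with 3 reads in left replicate 5, and ranged from 0.0541 to 1.94 CPM.

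Enzymes of myelin lipids moved like the sheath genes. Ugt8a, which makes galactosylceramide, ranged 31.5-fold, between 1.30 (right replicate 5) and 40.8 CPM (left replicate 4). Fa2h, which hydroxylates the fatty acids of these lipids, ranged 16.2-fold, and Aspa, which cleaves N-acetylaspartate to supply acetate, 19.0-fold. Enpp2 (autotaxin), which makes lysophosphatidic acid, stood at 8.77, 59.0, 97.2, 151 and 6.95 CPM in the left libraries, and the right ones had 7.63, 30.0, 139, 101 and 6.90 CPM. Enpp2 is also a gene of the choroid plexus. Of the markers of that tissue Ttr, its transthyretin, stood at 0.261 to 2.98 CPM, highest in right replicate 3, and Folr1 at 0.0338 to 0.147 CPM. Of the 8 markers only Clic6 had the library order of Enpp2, which 24.3% of all genes tested showed. Of the list's other genes 6 overlapped and 1 ran the opposite way. Clic6 had 0.108 to 0.309 CPM in replicates 1 and 5 and 0.322 to 1.70 CPM elsewhere. The sum of that list was 56.8 to 105 CPM, nearly all of it Otx2 at 49.5 to 102 CPM, which was highest in replicates 1 and 5. The part of that tissue in the values of Enpp2 was not tested.

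Car2 and Qdpr stood apart from the other enzymes. Car2, a cytosolic carbonic anhydrase, stood at 72.2, 104, 119, 119.8 and 62.8 CPM in the left libraries, and the right ones had 58.1, 85.5, 155, 146 and 53.7 CPM. It kept the common order, over a range of only 2.89-fold. Qdpr, which regenerates the cofactor tetrahydrobiopterin, stood at 67.2, 40.0, 36.6, 32.6 and 62.4 CPM in the left libraries, and the right ones had 53.8, 35.7, 43.4, 41.2 and 53.4 CPM. All 4 libraries of replicates 1 and 5 were above the other 6. Of the reads of the 28 members that are not precursor genes, Qdpr took 20.8% to 23.9% in replicates 1 and 5 and 1.66% to 5.82% in the others. Car2 took 21.9% to 24.7% and 6.11% to 13.9%, and Mbp 6.46% to 7.41% and 19.1% to 29.2%. Markers of habenular neurons had the same order as Qdpr for 8 of 10 genes, and their sum was 10218 to 10673 CPM in replicates 1 and 5 and 5034 to 8771 CPM in the others. Their part in the values of Qdpr and Car2 was not tested.

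Among receptor, junction and secreted genes the ranges were unequal. Trf, the iron carrier transferrin, stood at 4.91, 35.9, 53.2, 72.7 and 4.10 CPM in the left libraries, and the right ones had 2.73, 17.5, 78.2, 52.5 and 2.33 CPM, a 33.6-fold range. Gpr37, a receptor of maturing oligodendrocytes, ranged 25.9-fold and Gjc3, a connexin, 13.5-fold. Lpar1, a receptor for the lysophosphatidic acid that autotaxin makes, had the smallest range of all members, 1.80-fold. Its values were 10.4, 14.2, 13.8, 16.4 and 9.11 CPM in the left libraries and 9.88, 11.8, 14.3, 14.2 and 9.52 CPM in the right ones. The enzyme of this pair thus varied 21.9-fold and its receptor 1.80-fold, and both kept the common order of libraries.

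Transcription factors of the lineage had unequal levels and ranges, from 8.74-fold for Olig2 to 44.4-fold for Sox10. Sox10 stood at 0.809, 10.4, 19.2, 24.0 and 0.541 CPM in the left libraries, and the right ones had 0.849, 7.18, 24.0, 13.5 and 0.648 CPM. The lowest of replicates 2 to 4 was 8.46 times the highest of replicates 1 and 5, the widest gap of the list. Olig1 and Olig2, neighbours on chromosome 16 of GRCm38 (91269772 to 91271933 and 91225457 to 91228677, plus strand), ranged from 3.07 to 40.1 CPM and from 0.974 to 8.51 CPM. Nkx6-2, a homeobox factor of mature oligodendrocytes, was thin, at 0.0722 to 1.21 CPM, with 4 reads in left replicate 5.

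The 3 precursor genes followed the myelin genes. Pdgfra, the growth factor receptor of precursors, stood at 1.21, 8.17, 15.7, 22.7 and 1.12 CPM in the left libraries, and the right ones had 1.64, 5.16, 20.8, 21.9 and 1.52 CPM. Cspg4, the NG2 proteoglycan, had 0.236 to 0.343 CPM in the 4 libraries of replicates 1 and 5, and the other 6 lay between 2.56 and 13.4 CPM. Its 56.8-fold range was the widest of all members. Gpr17, a receptor of committed precursors, ranged from 1.10 to 14.3 CPM. Summed, the 3 genes gave 0.952 to 1.34 reads per 100 reads of the other 28 members in replicates 1 and 5 and 1.87 to 2.45 in the others. Without Enpp2, Trf, Car2, Qdpr and Gpr37 in the denominator these ranges overlapped, at 2.01 to 2.57 and 2.51 to 3.07. By side the ratio over all 28 was 1.73 ± 0.691 (left) and 1.80 ± 0.536 (right), a difference smaller than the spread between libraries.

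Set against the 14 sheath genes alone, the summed reads of precursor genes and of transcription factors varied little over the libraries. These ratios were chosen after the data were seen. Precursor reads per 100 sheath gene reads lay between 2.48 and 3.58, and transcription factor reads between 4.55 and 6.16. The single genes behind these sums did not keep one proportion. Of the reads of 26 members (without the precursor genes, Qdpr and Car2), Sox10 took 0.399% to 0.578% in replicates 1 and 5 and 0.909% to 1.46% in the others. Olig2 ran the opposite way, with 0.718% to 1.02% and 0.447% to 0.614%. Among precursor genes Cspg4 varied 56.8-fold in level, Pdgfra 20.3-fold and Gpr17 13.0-fold. The sheath genes themselves varied 14.1-fold over the same libraries, from 101 to 1429.9 CPM in sum. The same 26 members gave 100.4 to 139 reads per 100 reads of 11 astrocyte markers. The summed level of these 26 varied 13.9-fold, from 136 to 1885 CPM. Per 100 reads of 10 habenular neuron markers, the same 26 ranged from 1.32 to 37.4.

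**Figure D2:**
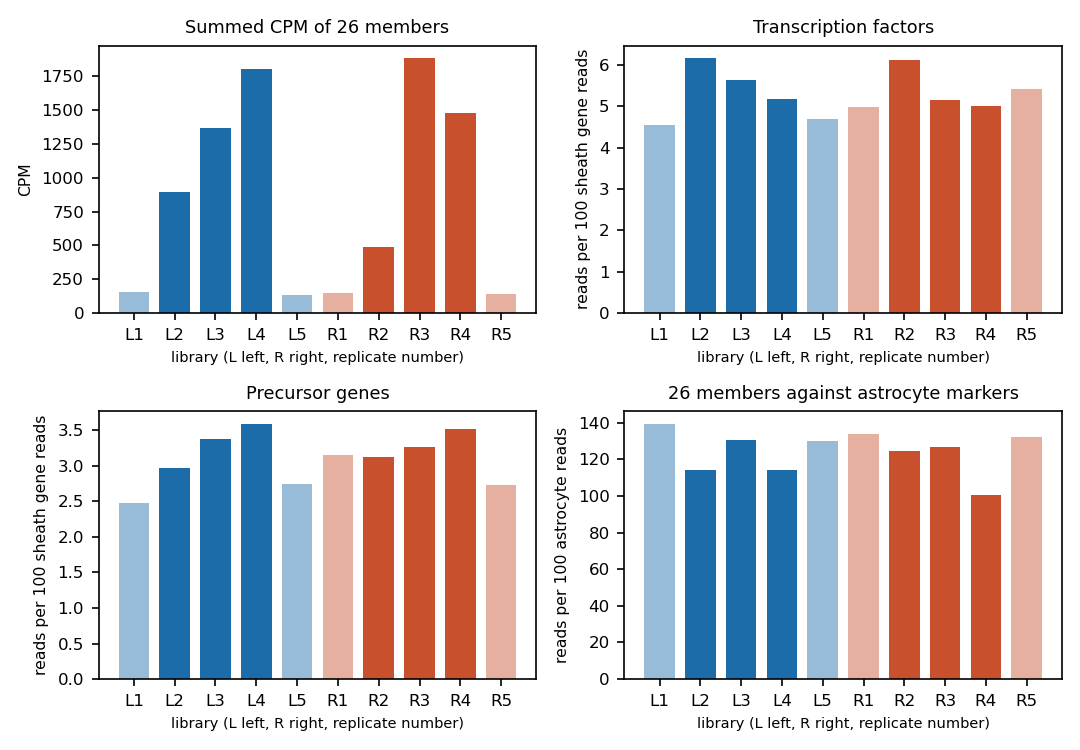
Summed CPM of 26 members (all but the precursor genes, Qdpr and Car2), reads of the transcription factors and of the precursor genes per 100 sheath gene reads, and reads of the 26 members per 100 astrocyte marker reads, 1 bar per library. Pale bars are replicates 1 and 5. The summed level varied 13.9-fold, and the ratios varied 1.36-fold, 1.45-fold and 1.39-fold.

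Markers of other cells moved with the list. All 11 astrocyte markers were lower in replicates 1 and 5 than in the others. Their sum was 104 to 109.9 CPM against 396 to 1586 CPM, led by the glutamate transporter Slc1a2 at 33.1 to 1097 CPM and the glycolytic enzyme Aldoc at 59.1 to 425 CPM. Of 10 microglia markers 7 had that order, with sums of 6.80 to 8.82 and 17.2 to 43.6 CPM. The growth factor receptor Csf1r ranged from 0.217 to 13.2 CPM. Glial genes were used to make the split, so the astrocyte and microglia counts are descriptions. Of all genes tested, 24.3% had that order. Of 8 endothelial markers 6 had the order, though the most abundant, Esam, was higher in replicates 1 and 5 and Pecam1 overlapped, at 3.34 to 9.45 and 3.58 to 6.34 CPM. Nwd2 and Lrrc55, abundant transcripts of habenular neurons, ran the other way, with 2690.1 to 3065 and 2219.6 to 2389 CPM in replicates 1 and 5 against 1668 to 2565 and 960.2 to 1825 CPM elsewhere. The part of these cells in the values of the oligodendrocyte genes was not tested.

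**Figure D3:**
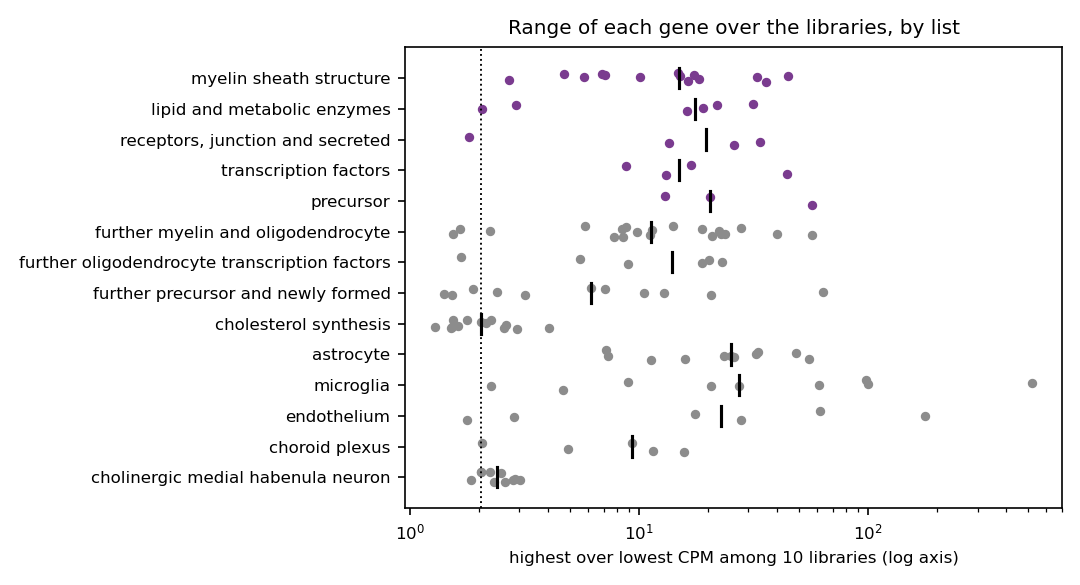
Ratio of the highest to the lowest CPM among 10 libraries on a log axis for each tested gene with reads in every library, by list. Purple points are the members by role, grey points are other lists, black ticks are list medians, and the dotted line is the median of all genes tested, 2.03. Most members lie at or above 10, while cholesterol synthesis and habenular neuron genes lie near the dotted line. The medians of astrocyte (25.1), microglia (27.2) and endothelial markers (22.6) lie above the median of all members, 16.2, and that of choroid plexus markers (9.26) below it.

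Further genes of the lineage, named by their level, gave the same picture in part. Of 20 further myelin and oligodendrocyte genes 15 were lower in replicates 1 and 5 than in the others. Efnb3, an ephrin, overlapped at 42.9 to 71.0 CPM. Of 6 further transcription factors 5 had that order. Myrf, which drives myelin gene expression, ranged from 4.58 to 40.7 CPM, and Zfp536, a zinc finger factor, overlapped at 42.8 to 71.0 CPM. Of 12 further precursor genes 8 had it, led by the receptor phosphatase Ptprz1 at 39.3 to 412 CPM and the matrix protein Tnr at 77.4 to 185 CPM. Of 13 genes of cholesterol synthesis, which supplies the main lipid of myelin, 7 had it over a median range of 2.04-fold. Hmgcs1, an early enzyme of that route, ranged from 90.7 to 265 CPM and Sqle, squalene epoxidase, from 55.8 to 85.1 CPM. The background for these counts is again 24.3% of all genes tested.

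Per length of merged exons, Cnp, Car2, Mbp and Qdpr were the most abundant members, with means of 44.4, 40.3, 28.5 and 26.1 RPKM (CPM per kilobase of exon) over the 10 libraries. In right replicate 3, the library with the highest sum, Cnp reached 98.4 RPKM and Mbp 68.3 RPKM. The precursor genes Pdgfra and Cspg4 had means of 0.998 and 0.409 RPKM. Lengths cover all annotated transcripts of a gene and can exceed that of the form present. Trf shares 63.5% of its exonic bases with the same-strand gene Gm20425, and Pllp shares 54.2% and Qdpr 18.6% with genes of the other strand, in GENCODE M21. Nkx6-2 shares 12.9% with Inpp5a, a counted gene of the other strand, while the genes that overlap Trf, Pllp and Qdpr have no row of their own in the counts. No source used here gives the strand setting of the counting, so reads of Pllp and Qdpr cannot be told apart from those of the other strand. Reads of Trf cannot be told apart from those of Gm20425 over the shared bases, whatever that setting. How reads shared by Nkx6-2 and Inpp5a were counted is not stated either.

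The comparison of the sides asked whether these genes differ by side of the medial habenula. No member differed beyond the spread between libraries. In edgeR's quasi-likelihood test with Benjamini-Hochberg adjustment, 0 of 31 members and 0% of the 16250 genes tested had an adjusted p under 0.05, and 0 members had an unadjusted p under 0.05. At an unadjusted p under 0.05 there were 90 of all genes tested. DESeq2 and limma-voom also called 0 genes. The limma-voom fit, with a weight for each library, differed in other ways. It gave an unadjusted p under 0.05 for 16 members and 2409 of all genes tested, and a median log2 fold change of 1.66 over the members. In edgeR the fitted log2 fold changes of the members lay between -0.69 and 0.21 with a median of 0.05, and the median of all genes tested was -0.01. For Mbp the log2 fold change was -0.09 (95% CI -2.67 to 2.49), so that several-fold differences in either direction lie within its interval. The narrowest interval was that of Lpar1 (0.07, -0.37 to 0.50), followed by Qdpr (0.05, -0.46 to 0.55). The largest fold changes were those of the thin genes Ppp1r14a (-0.69, -1.74 to 0.37) and Nkx6-2 (-0.50, -2.27 to 1.26).

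Directions by side depended on single libraries. With all libraries 20 of 31 members had a log2 fold change above 0, but leaving out each library in turn gave between 1 and 29. Of all genes tested, 46.3% were above 0 with all libraries and 42.2% to 51.7% with a library left out. Only 1 member was above 0 without left replicate 4 or without right replicate 5, 2 without right replicate 1, 3 without left replicate 3 and 4 without right replicate 2. Without left replicate 1 or without left replicate 5 there were 27. Leaving a library out also leaves the sides with unequal numbers of libraries from replicates 1 and 5 or from 2 to 4. These counts cannot separate that imbalance from a side difference. Replicate numbers 2 to 5 each had their left and right libraries in the same lane. Left replicate 2 was above right replicate 2 for 30 members, and left replicate 3 was below right replicate 3 for all 31. Of all genes tested, 50.7% and 49.6% were higher on the left in these pairs. In the pair of replicate 4 there were 22 members higher on the left, where 57.6% of all genes tested were. In that of replicate 5 there were 17 (46.7% of all genes) and in that of replicate 1 there were 16 (50.8%), both near the share over all genes. The astrocyte sums of these libraries differed the same way, at 785 and 396 CPM in left and right replicate 2 and at 1049.6 and 1489.8 CPM in left and right replicate 3, and their part was not tested.

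Within replicates 1 and 5 alone, 7 members were higher on the left and 0 on the right. That is 23.3% of the 30 members tested there, in an edgeR fit that called 12.8% of 15569 genes, 5.74% as higher on the left. Trf stood at 4.91 and 4.10 CPM in the left libraries and 2.73 and 2.33 CPM in the right ones (log2 fold change 0.84, 95% CI 0.56 to 1.11, edgeR adjusted p = 0.0100). Opalin, Cldn11, Mag and Ermn had log2 fold changes of 0.80, 0.71, 0.65 and 0.62 (edgeR adjusted p between 0.0232 and 0.0423). Qdpr and Car2 differed less, by 0.28 and 0.27 (edgeR adjusted p = 0.0158 and 0.0271). Mbp, at 0.07, was not called. For none of the 7 did the libraries of the sides overlap in these replicates. The 7 were picked by the fit to the same libraries, so this lack of overlap adds no support. The libraries of a side differed beyond sampling noise but far less than other pairs of a side, so this test compares 2 alike libraries with 2 others, and shared animals cannot be told apart from separate ones. In replicates 2 to 4 alone edgeR called 0 members, and the 7 genes had log2 fold changes between -0.52 and 0.10. Whether the side difference itself differed between these sets of libraries was not tested.

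**Figure D4:**
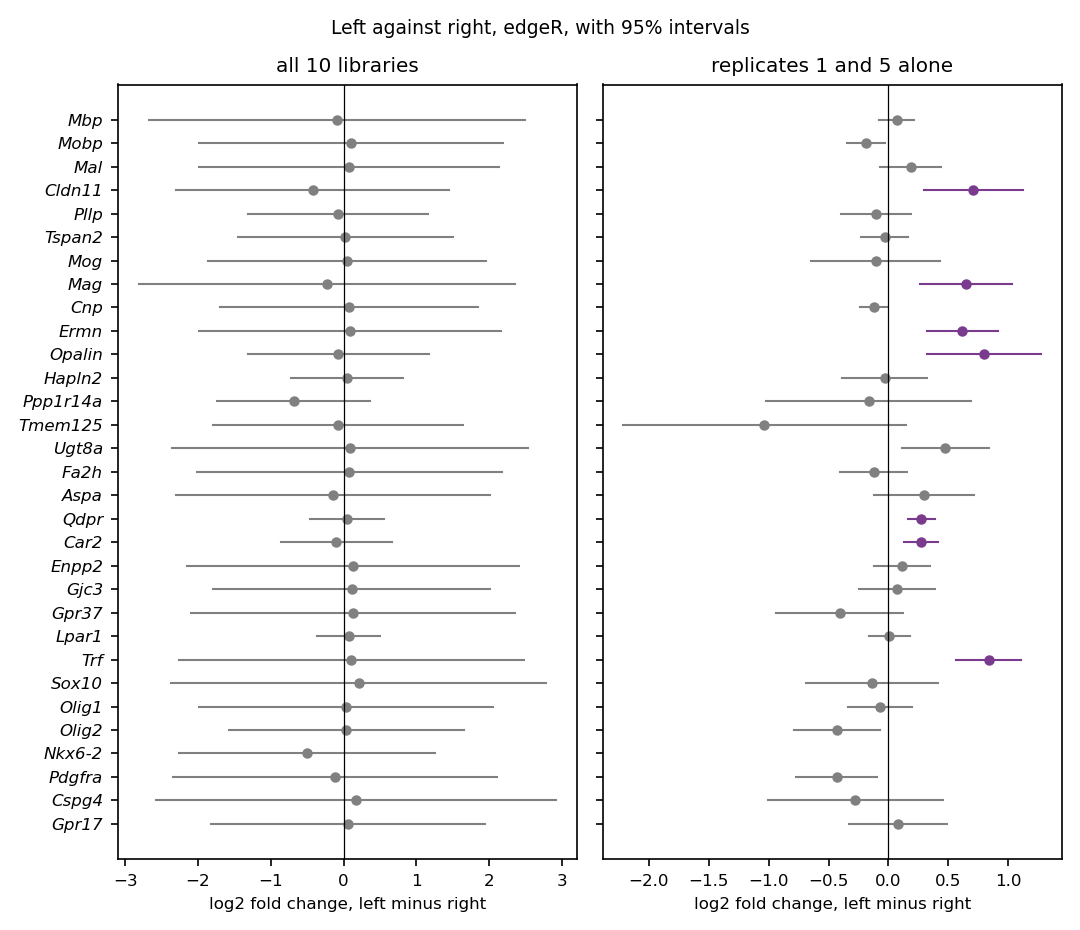
Log2 fold change, left minus right, of each member with its 95% interval from edgeR, with all 10 libraries (left panel) and within replicates 1 and 5 (right panel, narrower axis). Purple marks an adjusted p under 0.05. All intervals of the left panel include 0, and the right panel has 7 purple genes, all above 0. Nkx6-2 was not tested in the right panel.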

How the data were processed

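The authors deposited raw read counts per gene symbol, 1 file per library. The submitters' processing notes list the tools HTSeq and STAR 2.0.0e and the build mm10. No source used here gives the annotation, the strand setting or the filters. Of 32537 rows 6 name no gene, and these were left out. Reads outside genes were 13.6% to 18.9% and reads in overlapping genes 2.25% to 2.81% of uniquely aligned reads.

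The choice of members, lists, tests and named genes was made with earlier results of these data known. The rule names all members and the 2 most abundant genes of each further list, of which some are not reported here. CPM used total gene reads. RPKM used merged exons of GENCODE M21 (GRCm38), which matched 23155 of 32531 symbols. Left and right were compared with edgeR 4.0.16 under R 4.3.3 (filterByExpr with a minimum count of 10, TMM factors, robust quasi-likelihood fit, two-sided, side as the only term). The fit was tested on simulated data with 5 and 5 libraries and 200 changed genes. It recovered 16.5% of them at a 2-fold change and 85% at a 4-fold change, so most 2-fold changes would be missed. Alternatives were other factors and filters, DESeq2 1.42.0, limma-voom with sample weights (limma 3.58.1), a replicate block, an astrocyte score as covariate and subsets of libraries. Counting intervals cover counting error only.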

Additional observations from a re-analysis of the deposited data

Results flagged for a closer look

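Among 62 groups of 5 values (31 members on 2 sides), 1 had a library far from the rest. Tmem125 on the right stood at 1.94 CPM in replicate 3 and at 0.283, 0.706, 0.706 and 0.397 CPM in replicates 1, 2, 4 and 5. Chance alone flags about 1 in 20 such groups.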

How the results depend on the processing

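The count of members called by side was 0 under every alternative and with each library left out, except in replicates 1 and 5 alone (7 members, 1992 of all genes). The order of the libraries held for 29 members under all 3 other scalings and for 29 to 30 with each library left out. With each library left out, the number of members above 0 ranged from 1 to 29 and the count of all genes called was 0. For Mbp the log2 fold change reversed in limma-voom (2.39), with the replicate block (0.12; 0.17 with replicates 2 to 5), with the astrocyte covariate (0.036) and in replicates 1 and 5 alone (0.070), and ranged from -0.59 to 0.53 with each library left out. Nkx6-2 reversed in limma-voom (0.73) and ranged from -1.03 to 0.11. Qdpr reversed in limma-voom (-0.23), with the replicate block of replicates 2 to 5 (-0.061), in replicates 2 to 4 alone (-0.16) and with replicates 1 and 5 summed (-0.0079), and ranged from -0.089 to 0.16. Lpar1 ranged from -0.030 to 0.17 and Ppp1r14a from -0.88 to -0.45. The precursor reads per 100 reads of the other members moved from 1.73 and 1.80 (left and right means) to 2.55 and 2.65 without Enpp2, Trf, Car2, Qdpr and Gpr37. The causes were not tested. With the replicate block 0 genes were called, as without it. In that fit 25 of 31 members and 46.5% of all genes tested were above 0. An unadjusted p under 0.05 was found there for 2 members and for 297 of all 16250 genes tested. The left and right libraries of a number deviated together with correlations of 0.86, 0.096, 0.81, 0.72 and 0.87. Not all were over 0.1, so the numbers were not taken to pair the libraries. Both sides share the split of replicates 1 and 5 from 2 to 4, which enters these correlations, so they cannot settle the pairing. In limma-voom, fitted with a weight for each library, 16 of 31 members had an unadjusted p under 0.05, though none was called. Of the 16250 genes tested 2409 had one in that fit. The median log2 fold change there was 1.66 over the members and -0.01 over all genes tested. Tmem125, Nkx6-2 and Ppp1r14a, with fewer than 10 reads in a library, are limited by depth.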

Other observations

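Genes in this paragraph were chosen after their values were seen. Zfp488, a transcription factor of the oligodendrocyte lineage, stood at 1.13 and 1.10 CPM in left replicates 1 and 5 and at 0.253 and 0.235 CPM in right replicates 1 and 5. Its log2 fold change within those replicates was 2.18 (95% CI 1.68 to 2.68, edgeR adjusted p = 0.00466). In replicates 2 to 4 it stood at 1.82, 3.72 and 5.18 CPM in the left libraries, and the right ones had 1.40, 5.39 and 3.44 CPM, so the sides overlapped. Vcan, a matrix proteoglycan of precursors, ran the other way in replicates 1 and 5, at 0.843 and 0.704 CPM in the left libraries and 1.46 and 1.15 CPM in the right ones (log2 fold change -0.75, edgeR adjusted p = 0.0394). Gamt, which makes creatine and is abundant in oligodendrocytes, had the order of Qdpr, with 14.5 to 17.1 CPM in replicates 1 and 5 and 7.69 to 12.8 CPM in the others. Emid1, a matrix gene of the precursor list, had it too. As above, libraries of a side within replicates 1 and 5 were far more alike than other pairs, so these p-values may not measure the spread between animals.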
